A study of Mus musculus with 12 samples.

Results

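The G2 and mitosis genes are 48 genes that act from the end of DNA replication to the separation of the daughter cells. They were chosen by name: each gene was taken from the transcript clusters whose platform gene symbol is that name, and by its cluster with the highest mean where it had more than 1. Of the 48 genes listed, 47 had such a cluster, out of 19938 genes named by a cluster with a single symbol, and Ccnb1 was not analysed here. Sgol1 was matched under its current symbol, Sgo1. The genes were divided into 9 kinases, cyclins and phosphatases, of which 8 were measured, 10 genes of the spindle checkpoint and anaphase, 7 kinesins, 7 genes of the spindle and cytokinesis, 13 genes of the centromere and condensin, and 2 further genes, Foxm1 and Mki67. The rule used no measured value other than the mean signal of a cluster, but the list was drawn up with earlier results of these data known.

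Transcript levels were read on 12 arrays (Affymetrix Mouse Gene 1.0 ST) from pro-B cells purified from the bone marrow of mice 1 month old that were kept under specific pathogen-free conditions. Of these, 4 came from Cd72+/-;Pax5+/- mice (the double heterozygotes), which have lost a copy of Cd72 and a copy of Pax5, 4 from Pax5+/- mice, which have lost a copy of Pax5 and keep both copies of Cd72, and 4 from wild-type (WT) mice. Both mutant groups share the loss of a Pax5 copy, and their cells carry the label of preleukemic precursor B cells, so the comparison of Cd72+/-;Pax5+/- with Pax5+/- is between groups whose labels differ in Cd72. These groups also differ in the sex markers Xist and Uty, given below, so Cd72 genotype and sex cannot be told apart in it. Double heterozygotes and WT differ in these markers too, so genotype and sex cannot be told apart in that comparison either. A group with Cd72 loss alone was not analysed here. Pax5 is the transcription factor that commits cells to the B lineage, Cd72 is an inhibitory co-receptor of B cells, and the series concerns the joint loss of both genes in B-cell leukemia. The sources used here do not state how many mice the arrays represent, so the p-values measure the spread between arrays, which may be technical, and the number of arrays limits the precision.

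Entry into mitosis is driven by CDK1 with cyclins A and B, which CDC25 phosphatases switch on. Once the chromosomes are condensed and attached to the spindle, the anaphase-promoting complex, a ubiquitin ligase, marks securin and cyclin B for destruction. Separase then cleaves cohesin, the sister chromatids part, and the cell divides. Pro-B cells are cycling precursors that expand in response to interleukin-7, and genes of this program are transcribed mainly in G2 and M. Many of their promoters carry a cell cycle genes homology region (CHR), bound by the DREAM and MuvB complexes, and CCAAT boxes, bound by NF-Y.

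Promoter windows of 300 bases, from 250 before to 50 after the transcription start, were taken from RefSeq (build GRCm38.p6) for 40 of the 48 genes, which had 43 such windows. A CHR was searched for as TTTGAA or TTCGAA and a CCAAT box as CCAAT, each on both strands. TTCGAA reads the same on both strands, and a CCAAT box can share bases with a match on the opposite strand, so each window was counted once per motif. A CHR was found in 35 of the 43 windows (81.4%), against 16.5% of 19177 windows of genes with a tested cluster and 19.2% of all 32851 windows in the table. A CCAAT box was found in 76.7% of the windows of the G2 and mitosis genes, against 37.4% of those of genes with a tested cluster. Both motifs stood together in 72.1%, against 6.56% of the windows of genes with a tested cluster. These shares describe letters in a window and do not show that a factor is bound. The share with a CHR was 84.6% (11 of 13 windows) for genes that passed the expression test in some comparison below. It was 80.0% (24 of 30) for the other genes, which include Ccnb1, a gene that was not tested and had no CHR.

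The windows of 6 genes are shown. Ncapd2, Pttg1, Bub1b and Cdc25b are the genes with the smallest adjusted p-values below, and Cdk1 and Plk1 are the central mitotic kinases, neither of which passed the test. All are written 5′ to 3′ on the strand of the gene, with CHR and CCAAT matches in capitals; ATTGG is the CCAAT box read on the opposite strand. They lie at chr6:125191537-125191836 on the minus strand (Ncapd2), chr11:43425932-43426231 on the minus strand (Pttg1), chr2:118597961-118598260 on the plus strand (Bub1b), chr2:131186698-131186997 on the plus strand (Cdc25b), chr10:69352863-69353162 on the minus strand (Cdk1) and chr7:122159185-122159484 on the plus strand (Plk1), in GRCm38.p6.
Ncapd2: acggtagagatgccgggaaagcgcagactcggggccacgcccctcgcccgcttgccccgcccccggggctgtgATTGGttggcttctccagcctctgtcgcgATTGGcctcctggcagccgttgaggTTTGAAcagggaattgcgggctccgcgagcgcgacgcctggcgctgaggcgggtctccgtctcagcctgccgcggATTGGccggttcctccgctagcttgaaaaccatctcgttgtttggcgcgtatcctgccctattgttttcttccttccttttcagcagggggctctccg
Pttg1: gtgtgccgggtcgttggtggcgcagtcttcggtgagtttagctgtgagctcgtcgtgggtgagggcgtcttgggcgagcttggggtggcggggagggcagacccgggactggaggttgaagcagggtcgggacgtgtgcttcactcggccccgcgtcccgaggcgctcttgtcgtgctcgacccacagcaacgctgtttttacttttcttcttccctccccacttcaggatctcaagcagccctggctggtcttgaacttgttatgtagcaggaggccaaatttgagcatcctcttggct
Bub1b: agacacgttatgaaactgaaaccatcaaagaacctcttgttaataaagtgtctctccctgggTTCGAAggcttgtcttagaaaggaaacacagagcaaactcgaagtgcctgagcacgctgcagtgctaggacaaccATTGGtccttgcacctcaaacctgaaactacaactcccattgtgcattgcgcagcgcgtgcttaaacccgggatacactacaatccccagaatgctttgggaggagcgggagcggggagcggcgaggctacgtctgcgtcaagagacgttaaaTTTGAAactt
Cdc25b: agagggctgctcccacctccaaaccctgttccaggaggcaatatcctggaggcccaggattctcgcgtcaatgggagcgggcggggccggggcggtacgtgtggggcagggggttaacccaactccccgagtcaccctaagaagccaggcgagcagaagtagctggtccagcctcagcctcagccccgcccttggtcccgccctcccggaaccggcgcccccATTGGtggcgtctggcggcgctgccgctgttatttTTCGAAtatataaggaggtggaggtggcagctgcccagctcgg
Cdk1: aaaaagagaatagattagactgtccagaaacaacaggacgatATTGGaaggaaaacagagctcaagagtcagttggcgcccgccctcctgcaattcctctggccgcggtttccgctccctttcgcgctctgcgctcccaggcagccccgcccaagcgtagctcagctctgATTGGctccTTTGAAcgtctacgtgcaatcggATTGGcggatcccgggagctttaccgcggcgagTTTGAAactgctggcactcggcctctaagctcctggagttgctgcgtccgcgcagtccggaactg
Plk1: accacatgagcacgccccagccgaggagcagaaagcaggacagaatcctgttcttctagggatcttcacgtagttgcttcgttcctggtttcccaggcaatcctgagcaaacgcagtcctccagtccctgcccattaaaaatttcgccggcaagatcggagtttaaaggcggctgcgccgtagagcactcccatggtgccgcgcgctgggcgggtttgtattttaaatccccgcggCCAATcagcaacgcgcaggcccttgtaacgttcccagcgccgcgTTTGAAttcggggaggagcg
The Cdk1 window held 2 CHR matches, beginning at positions -71 and -15 from the start, and 3 CCAAT boxes. In Ncapd2 the CHR began at position -123, with CCAAT boxes at -177, -148 and -48. In Cdc25b and Plk1 the CHR began at positions 7 and 30, and each had a single CCAAT box upstream. Bub1b had a CHR of each form. The Pttg1 window held no match to any of these letters.

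**Figure D1:**
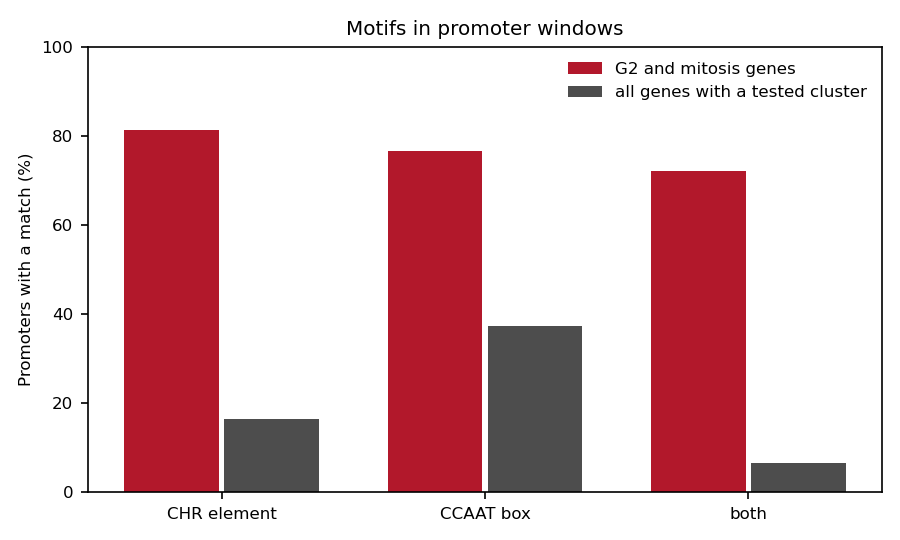
Share of promoter windows (percent, y axis) that hold a CHR, a CCAAT box or both (x axis), for the 43 windows of the G2 and mitosis genes (red) and the 19177 windows of genes with a tested cluster (grey). The bars of the G2 and mitosis genes stand at 81.4%, 76.7% and 72.1%, against 16.5%, 37.4% and 6.56%.

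Cd72 was lower in Cd72+/-;Pax5+/- than in WT (log2 change -1.39, limma adjusted p = 0.00049) and Pax5 was lower in Pax5+/- than in WT (-0.60, adjusted p = 0.0051), while for Pax5 the double heterozygotes and WT differed by -0.36 (adjusted p = 0.0781). Cd72 was higher in Pax5+/- than in WT (1.29, adjusted p = 0.00083). With the close pairs of arrays described below averaged, none of these calls was kept. The limma adjusted p was then 0.137 for Cd72 in double heterozygotes relative to WT. In Pax5+/- against WT it was 0.289 for Pax5 and 0.173 for Cd72. With the pairs as a random block, also described below, each call was kept (limma adjusted p at most 0.0113). Xist, transcribed from the inactive X chromosome of females, was at 11.75 to 11.90 in Cd72+/-;Pax5+/-, against 5.00 to 5.38 in Pax5+/- and 5.09 to 5.52 in WT. Uty, a gene of the Y chromosome, was at 4.88 to 5.19 in Cd72+/-;Pax5+/-, against 9.26 to 9.52 in Pax5+/- and 8.85 to 9.74 in WT. In both comparisons that include Cd72+/-;Pax5+/-, genotype and sex therefore cannot be told apart. Of the 47 genes, Kif4 alone lies on chromosome X. All 11 pro-B markers measured were above the array median on every array, as were 4 of 6 pre-B markers, 1 of 7 erythroid markers (Tfrc), 1 of 11 granulocyte and monocyte markers (Lyz2), none of 8 T and NK markers, 4 of 6 plasma cell markers and 5 of 11 stromal and endothelial markers.

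In the fit with each array as a replicate, some markers of the B-cell stage differed between the groups. Of the 11 pro-B markers, 2 were higher and 1 was lower in Pax5+/- than in WT, 1 was higher and 1 lower in double heterozygotes than in WT, and 1 was higher and 2 lower in double heterozygotes than in Pax5+/-. These are 27.3%, 18.2% and 27.3% of the list, against 7.47%, 7.78% and 9.79% of all tested clusters. Dntt, which adds untemplated bases at antibody gene joints, fell by 2.34 in double heterozygotes relative to WT (limma adjusted p = 0.0052) and by 2.12 relative to Pax5+/- (adjusted p = 0.0081). Cd93, a surface marker of early B cells, was higher by 1.27 in Pax5+/- than in WT (adjusted p = 0.00026). Of the 6 pre-B markers, 3 were higher in Pax5+/- than in WT, 2 were higher and 2 lower in double heterozygotes than in WT, and 1 was higher and 2 lower in double heterozygotes than in Pax5+/- (50%, 66.7% and 50% of the list). Ikzf3, the transcription factor Aiolos, fell by 1.14 in double heterozygotes relative to WT (adjusted p = 2.59e-06) and by 1.51 relative to Pax5+/- (adjusted p = 1.46e-07). Cd22, an inhibitory co-receptor, rose by 0.86 in double heterozygotes relative to WT (adjusted p = 1.16e-06), and Il2ra, a receptor chain of interleukin-2, fell by 0.57 (adjusted p = 0.00022). With the close pairs of arrays averaged, Dntt did not pass against WT or Pax5+/- (limma adjusted p = 0.302 and 0.308). Nor did Cd93 in Pax5+/- against WT (0.127) or Il2ra in double heterozygotes relative to WT (0.0893). Ikzf3 still passed against WT and Pax5+/- (0.0212 and 0.0079), as did Cd22 against WT (0.0163). The part of the cell stage in the results below was not tested.

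The arrays of a group fell into close pairs, and the G2 and mitosis genes followed them. In WT, replicates 1 and 3 differed by a median of 0.03 over the 47 genes and replicates 2 and 4 by 0.05, while the other WT pairs differed by 0.26 to 0.30. In WT the mean of replicates 1 and 3 was above that of replicates 2 and 4 for 39 of 47 genes, by a median of 0.28 on the log2 scale, with Cenpf, Nusap1 and Cenpe apart by 0.64, 0.63 and 0.57. In Pax5+/- the mean of replicates 1 and 3 was above that of replicates 2 and 4 for 34 of 47 genes, by a median of 0.16, with Nuf2 and Mad2l1 apart by 0.54 each. In Cd72+/-;Pax5+/- the mean of replicates 1 and 2 was below that of replicates 3 and 4 for 37 genes, by a median of -0.08, and no gene differed by over 0.3. Marker lists also differed between the pairs. The mean of the pro-B markers was 11.34 to 11.52 on the double-heterozygous arrays, 11.63 to 11.75 on the Pax5+/- arrays, and 11.87, 10.98, 11.89 and 10.95 on WT replicates 1 to 4, so that it split along the WT pairs. The mean of the pre-B markers was 8.28 to 8.29 on the double-heterozygous arrays, 8.45, 8.71, 8.50 and 8.68 on Pax5+/- replicates 1 to 4, and 8.29 to 8.43 on the WT arrays. The mean of the S phase genes was 10.04 to 10.16 on the double-heterozygous arrays, 10.06, 9.80, 9.98 and 9.76 on Pax5+/- replicates 1 to 4, and 10.06 to 10.12 on the WT arrays. Both split along the Pax5+/- pairs, in opposite directions. Stromal and endothelial markers averaged 7.07 to 7.27 on the double-heterozygous arrays, 7.96, 7.24, 8.02 and 7.30 on Pax5+/- replicates 1 to 4, and 8.30, 7.78, 8.28 and 7.83 on WT replicates 1 to 4. Of these 11 markers, Cxcl12, Lepr, Pdgfrb, Kdr, Emcn and Cdh5 were not above the array median on every array, and 1 was lower in Pax5+/- than in WT, 3 were lower in double heterozygotes than in WT, and 1 was higher and 1 lower in double heterozygotes than in Pax5+/-. The genes that passed are 9.09%, 27.3% and 18.2% of the list in these comparisons, against 7.47%, 7.78% and 9.79% of all tested clusters. The part of stromal cells, or of the B-cell stage, in the differences between pairs was not tested, and in bulk RNA fewer cycling cells and less of these transcripts per cell cannot be told apart.

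**Figure D2:**
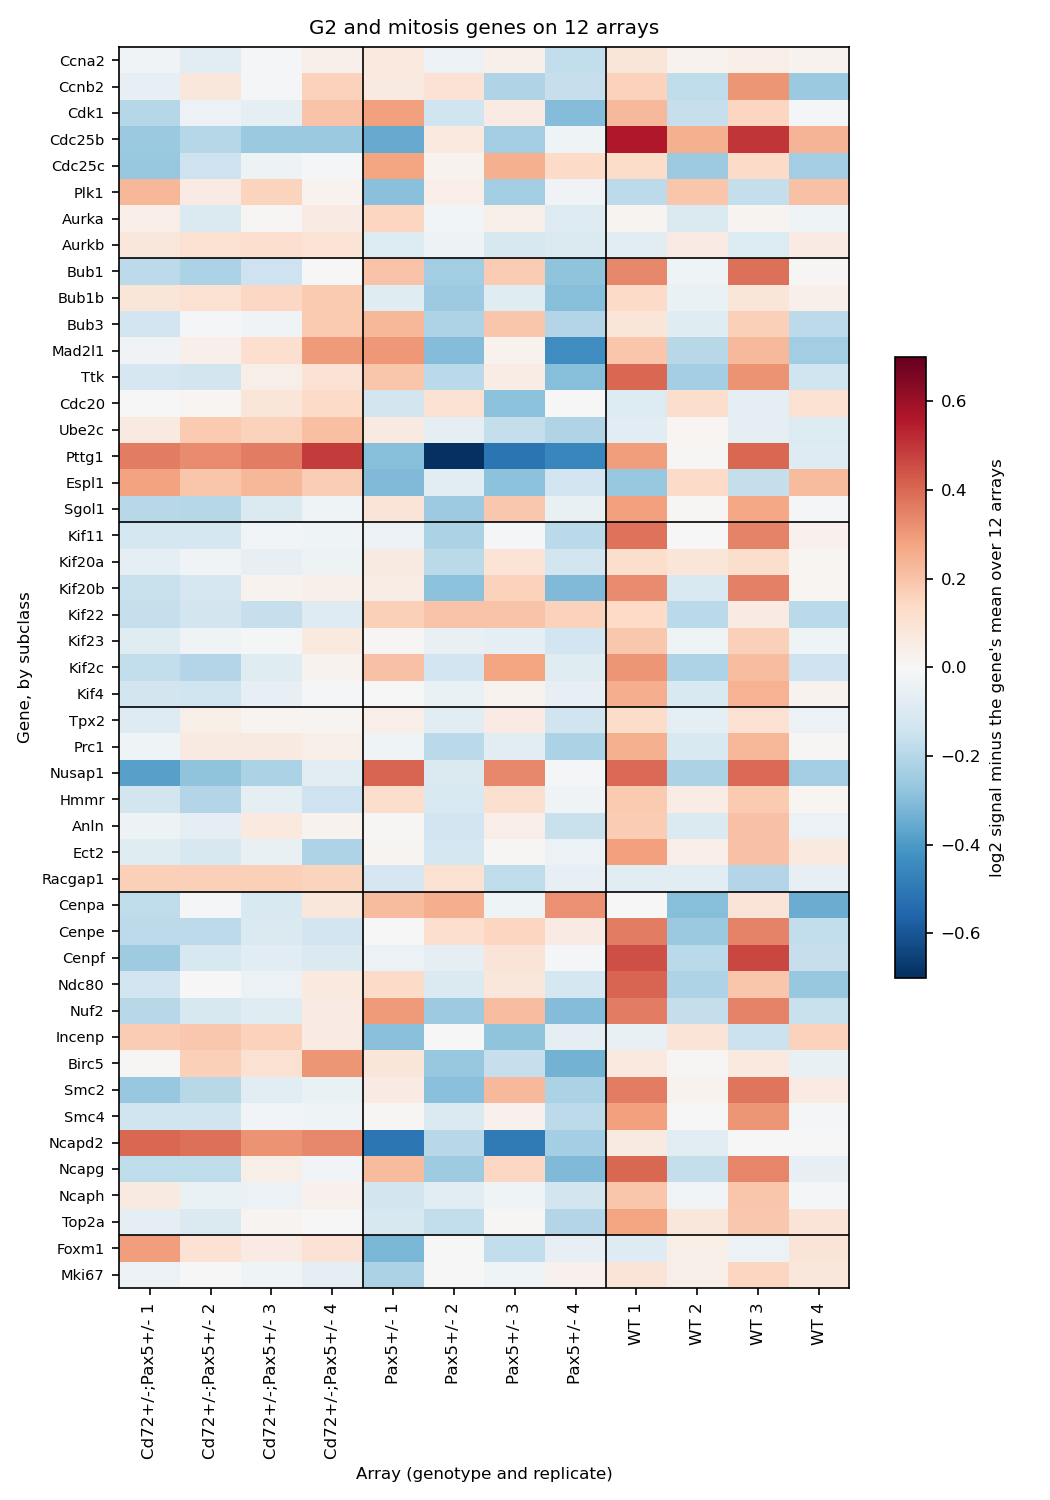
Log2 signal minus the mean of the gene over the 12 arrays (colour; red above, blue below), for the 47 measured G2 and mitosis genes (down the page, with lines between the classes) on the Cd72+/-;Pax5+/-, Pax5+/- and WT arrays (left to right). WT replicates 1 and 3 are red for most genes, with a median deviation of 0.19 on each, while WT replicates 2 and 4 stand at -0.05 and -0.01.

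None of the 47 genes of the list changed by over 2-fold in any comparison, the size that the study set for a differentially expressed gene. The comparisons are Pax5+/- against WT, double heterozygotes relative to WT and double heterozygotes relative to Pax5+/-. Of all 23410 tested clusters, 0.961%, 0.914% and 1.2% passed that threshold in them, with an unadjusted p under 0.05. Changes over 1.5-fold were found for 1 gene (Pttg1), 1 gene (Cdc25b) and 2 genes (Pttg1 and Ncapd2) in these comparisons, against 2.8%, 2.64% and 3.67% of all tested clusters. The 95% interval of the change lay within 1.5-fold in either direction for 45, 43 and 43 of 47 genes. The exceptions were Cdc25b and Pttg1 in Pax5+/- against WT, Cdc25b, Bub1, Nusap1 and Smc2 in double heterozygotes relative to WT, and Pttg1, Espl1, Nusap1 and Ncapd2 in double heterozygotes relative to Pax5+/-.

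Below that size, single genes passed the test, which was an adjusted p under 0.05 over all tested clusters. In Pax5+/- against WT, 5 of 47 genes (10.6%) were lower and none was higher, where 7.47% of all tested clusters passed, 3.2% lower and 4.28% higher. In double heterozygotes relative to WT, 3 genes were lower and 2 were higher (10.6% in all), where 7.78% of all tested clusters passed, 3.66% lower and 4.12% higher. In double heterozygotes relative to Pax5+/-, 10 genes were higher and 1 was lower (23.4% in all), where 9.79% of all tested clusters passed, 4.44% higher and 5.35% lower. The background of all tested clusters includes dim ones. With the dimmest left out (cut at a mean signal of 6.205), 10.7%, 11.3% and 14.3% of the remaining 15606 clusters passed in these comparisons. The 10.6% in each comparison with WT was not above that background, while the 23.4% between the mutants was. In Pax5+/- against WT the same 5 genes passed in that setting. The first and the second of these comparisons share the WT arrays, and the Pax5+/- arrays enter the first and the third. The double-heterozygous arrays enter the second and the third. The groups did not overlap for 10, 14 and 12 genes (21.3%, 29.8% and 25.5%), against 10.7%, 14.8% and 18.5% of all tested clusters. These background shares include the dim clusters, so they are not matched to the signal of the 47 genes. The median log2 change of the 47 genes was -0.13, -0.08 and 0.02 in the order above, against -0.005, 0.0025 and 0.005 over all tested clusters, and 38, 30 and 21 genes had a change below 0.

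These counts depended on what was taken as a replicate. With the closest pairs of arrays averaged to 1 value each, 0, 0 and 1 of the 47 genes passed, against 1.2%, 1.24% and 1.79% of all tested clusters, and the gene that passed was Ncapd2 in double heterozygotes relative to Pax5+/- (limma adjusted p = 0.0498). With the pairs instead kept as a random block, which allows arrays of a pair to be alike, 4.84%, 4.4% and 5.97% of all tested clusters passed. Cdc25b, Pttg1, Ncapd2 and Top2a then passed in Pax5+/- against WT, and Cdc25b and Ncapd2 in double heterozygotes relative to WT. Pttg1, Bub1b, Espl1, Kif22 and Ncapd2 passed between the mutants. With single arrays left out the counts were 4 to 7, 3 to 7 and 4 to 11. The count in double heterozygotes relative to WT was 3 without double-heterozygous replicate 2 or 4 or WT replicate 1 or 3. In Cd72+/-;Pax5+/- against Pax5+/- it was 7, 5, 5 and 6 without double-heterozygous replicate 1, 2, 3 or 4, 4 without Pax5+/- replicate 3 and 7 without Pax5+/- replicate 4. Leaving out a pair of arrays moved them further. Without replicates 1 and 3 of Pax5+/- and WT, 4 genes were higher and 11 lower in Pax5+/- against WT, 7 higher and 1 lower in double heterozygotes relative to WT, and 14 genes passed in double heterozygotes relative to Pax5+/-, where 22.9%, 18.9% and 20.3% of all tested clusters passed. Without replicates 2 and 4 of both groups, 10 genes were lower and none higher in Pax5+/- against WT, 26 lower and 6 higher in double heterozygotes relative to WT, and 10 higher and 11 lower in double heterozygotes relative to Pax5+/-, where 7.42%, 20.4% and 19.3% of all tested clusters passed. Each of these settings leaves 1 close pair in Pax5+/- and in WT, and the pairs were chosen after the arrays were seen.

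**Figure D3:**
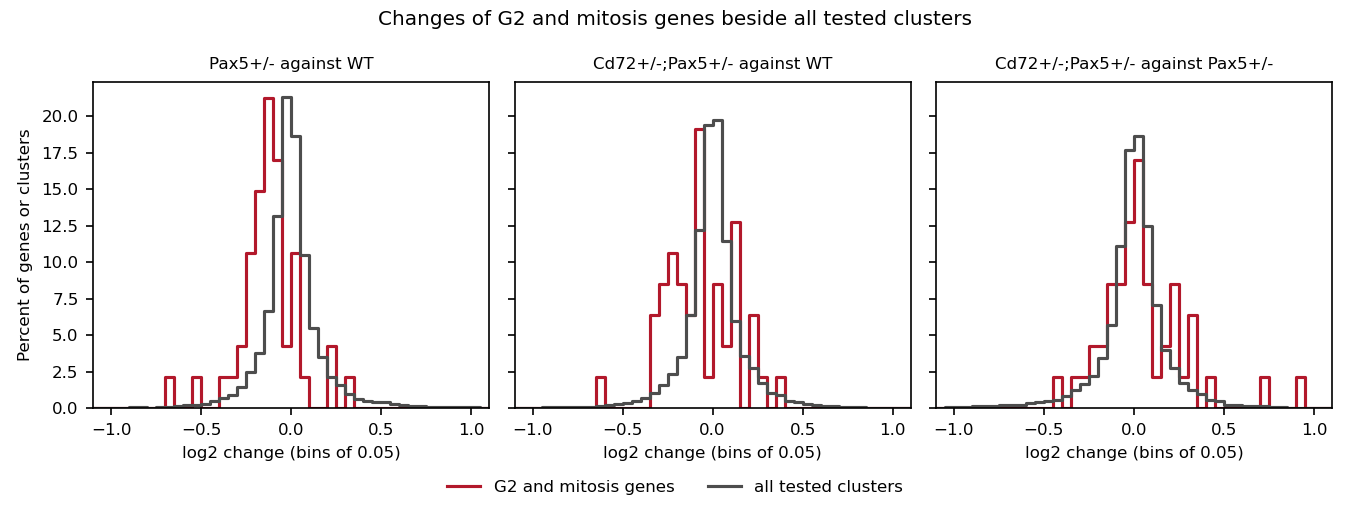
Distribution of log2 changes (x axis, bins of 0.05; y axis, percent) for the 47 G2 and mitosis genes (red) and the 23410 tested clusters (grey) in each comparison. The median of the G2 and mitosis genes is -0.13 in Pax5+/- against WT, -0.08 in Cd72+/-;Pax5+/- against WT and 0.02 in Cd72+/-;Pax5+/- against Pax5+/-.

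**Figure D4:**
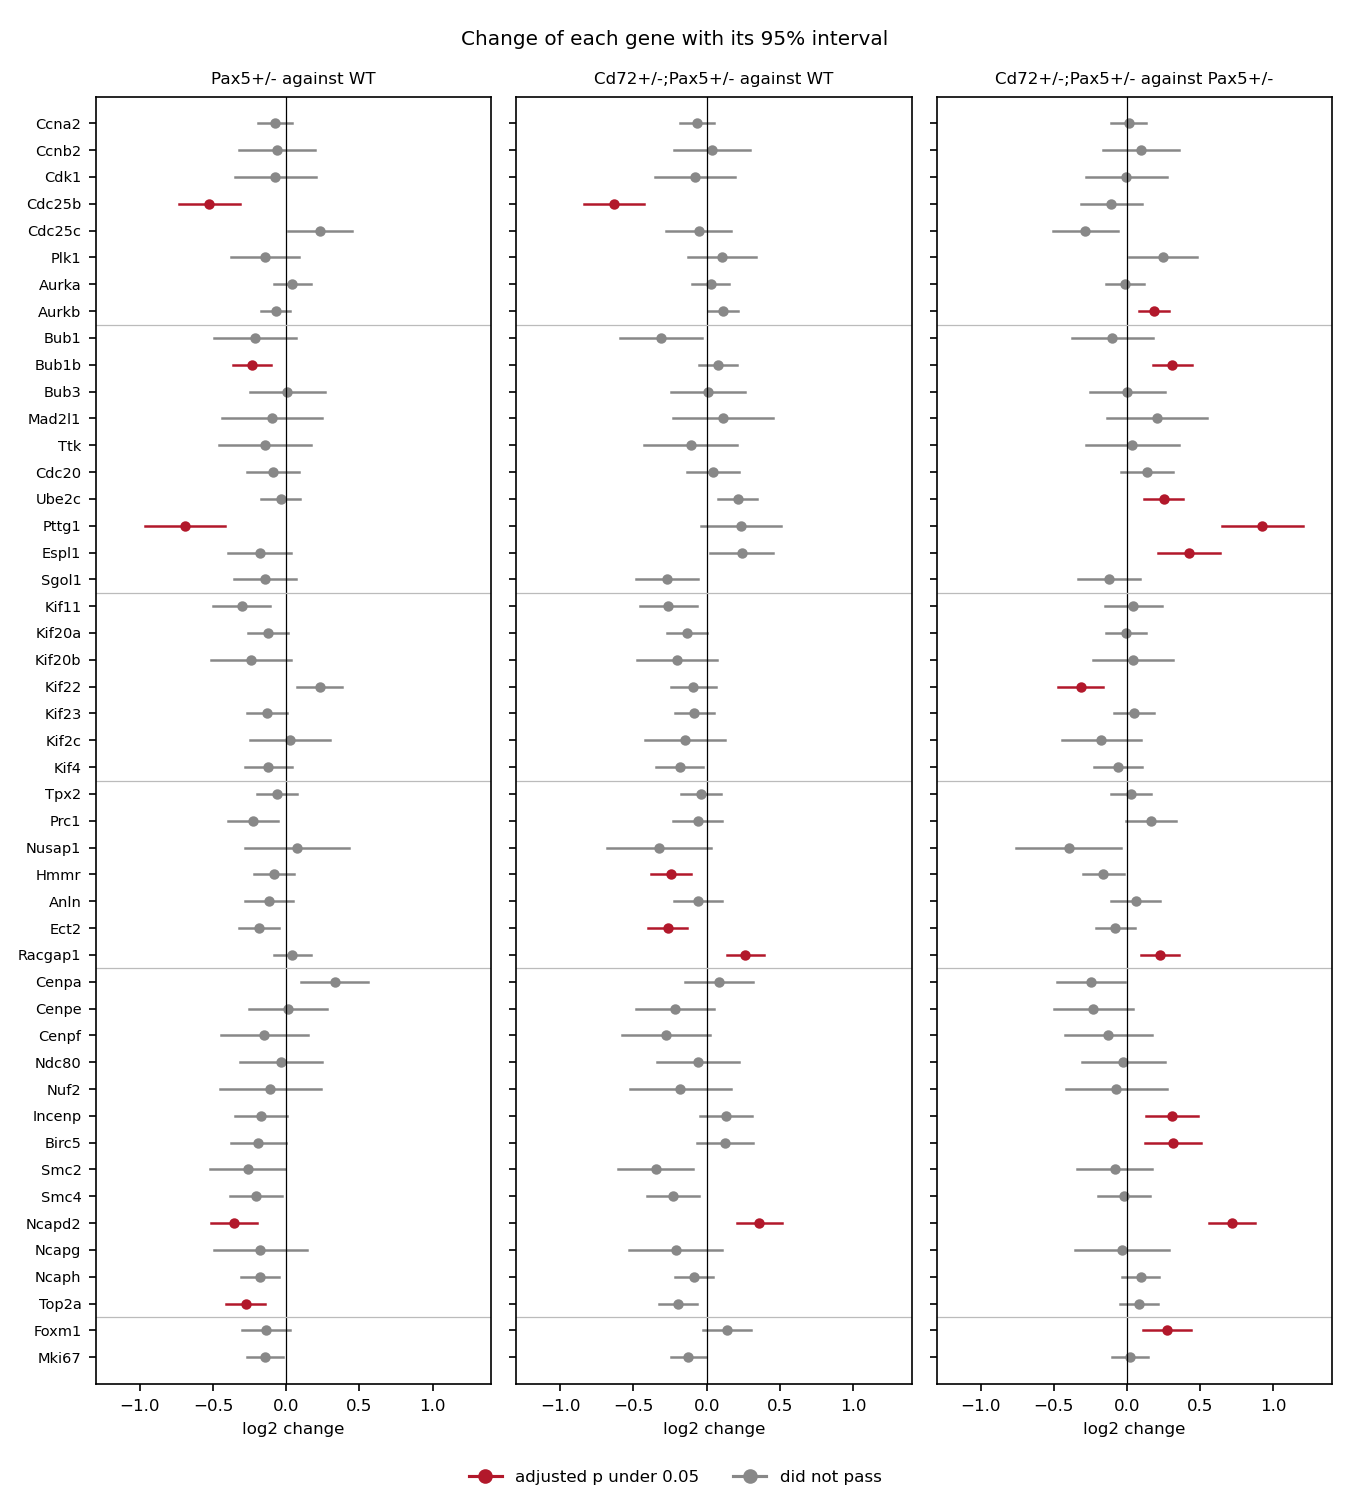
Log2 change (x axis) of each of the 47 genes (down the page, by class) in the 3 comparisons, with its 95% interval as a line and genes with an adjusted p under 0.05 in red. Ncapd2 is the gene that passed in all 3, at -0.36 in Pax5+/- against WT, 0.36 in Cd72+/-;Pax5+/- against WT and 0.72 in Cd72+/-;Pax5+/- against Pax5+/-.

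Among the kinases, cyclins and phosphatases, Cdc25b was lower in both mutants than in WT and Aurkb was higher in Cd72+/-;Pax5+/- than in Pax5+/-, while Cdk1, Plk1 and the cyclins Ccna2 and Ccnb2 did not pass in any comparison. Ccnb1, the main mitotic cyclin partner of CDK1, was not analysed here. Cdc25b, a phosphatase that activates CDK1, read 8.68, 8.74, 8.68 and 8.68 in Cd72+/-;Pax5+/-, 8.59, 9.01, 8.70 and 8.91 in Pax5+/-, and 9.50, 9.19, 9.44 and 9.18 in WT (log2 signal, replicates 1 to 4). Every WT array was above every array of both mutants, and the double-heterozygous arrays lay inside the range of Pax5+/-. Cdc25b fell by 0.63 in double heterozygotes relative to WT (SE 0.0956, 1.55-fold lower, limma adjusted p = 0.00098) and by 0.53 in Pax5+/- against WT (1.44-fold lower, adjusted p = 0.0037). With the close pairs averaged neither passed (adjusted p = 0.173 and 0.28). With the pairs as a random block both passed (limma adjusted p = 0.0022 and 0.0077). In Pax5+/- against WT the change was -0.23 once replicates 1 and 3 of Pax5+/- and WT were left out (adjusted p = 0.0241), and -0.83 once replicates 2 and 4 were (adjusted p = 2.52e-05). The difference between the mutants, -0.11, did not pass (95% interval -0.32 to 0.10).

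Cdk1, the kinase that drives entry into mitosis, read 9.35, 9.51, 9.48 and 9.75 in Cd72+/-;Pax5+/-, 9.84, 9.41, 9.61 and 9.25 in Pax5+/-, and 9.78, 9.39, 9.70 and 9.54 in WT. The groups overlapped throughout, and the intervals of the log2 change were -0.36 to 0.20 in double heterozygotes relative to WT, -0.35 to 0.20 in Pax5+/- against WT and -0.28 to 0.27 in double heterozygotes relative to Pax5+/-. Plk1, the polo-like kinase of the spindle poles and kinetochores, read 11.15, 10.97, 11.07 and 10.94 in Cd72+/-;Pax5+/-, 10.62, 10.96, 10.67 and 10.89 in Pax5+/-, and 10.73, 11.11, 10.75 and 11.12 in WT. Its low arrays were replicates 1 and 3 of Pax5+/- and of WT, where most of the other genes were high. Its change of 0.25 in double heterozygotes relative to Pax5+/- did not pass (limma adjusted p = 0.191). The other genes of this class did not pass: the cyclins Ccna2 (-0.08 to 0.01 over the 3 comparisons) and Ccnb2 (-0.06 to 0.10), the phosphatase Cdc25c (-0.29 to 0.23) and the centrosomal kinase Aurka (-0.02 to 0.04).

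Aurkb is the kinase of the chromosomal passenger complex, which corrects faulty attachments of chromosomes to the spindle, with Incenp as its scaffold and Birc5 (survivin) as a targeting subunit. Aurkb read 10.40, 10.43, 10.44 and 10.42 in Cd72+/-;Pax5+/-, 10.23, 10.29, 10.21 and 10.22 in Pax5+/-, and 10.25, 10.38, 10.23 and 10.38 in WT. Incenp read 10.81, 10.82, 10.79 and 10.69 in Cd72+/-;Pax5+/-, 10.34, 10.63, 10.35 and 10.57 in Pax5+/-, and 10.58, 10.72, 10.48 and 10.79 in WT. For both genes all double-heterozygous arrays were above all Pax5+/- arrays. WT overlapped Pax5+/- for both genes, and overlapped the double heterozygotes for Incenp. In double heterozygotes relative to Pax5+/-, Aurkb rose by 0.19 (SE 0.0465, limma adjusted p = 0.0238), Incenp by 0.31 (SE 0.0817, adjusted p = 0.0329) and Birc5 by 0.32 (SE 0.0872, adjusted p = 0.0387). Birc5 averaged 9.59 ± 0.125 in Cd72+/-;Pax5+/- and 9.28 ± 0.184 in Pax5+/- (SD, n = 4 arrays each), and these arrays overlapped. None of the 3 passed with the close pairs averaged (adjusted p = 0.408, 0.444 and 0.352 for Aurkb, Incenp and Birc5). Leaving out 1 array also ended each call: Aurkb without double-heterozygous replicate 2, 3 or 4 or Pax5+/- replicate 3 or 4 (adjusted p up to 0.0671), Incenp without double-heterozygous replicate 1, 2 or 3 or Pax5+/- replicate 1 or 3 (up to 0.101), and Birc5 without double-heterozygous replicate 2, 3 or 4 or Pax5+/- replicate 2, 3 or 4 (up to 0.114).

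Among the genes of the checkpoint and anaphase, 2 of 10 were lower in Pax5+/- than in WT (Pttg1 and Bub1b), none of 10 passed in double heterozygotes relative to WT, and 4 of 10 were higher in Cd72+/-;Pax5+/- than in Pax5+/- (Pttg1, Bub1b, Espl1 and Ube2c). Of all tested clusters, 3.2% were lower in Pax5+/- than in WT, 7.78% passed in double heterozygotes relative to WT, and 4.44% were higher in Cd72+/-;Pax5+/- than in Pax5+/-. Pttg1 encodes securin, which holds separase inactive until anaphase. It read 8.40, 8.37, 8.40 and 8.53 in Cd72+/-;Pax5+/-, 7.74, 7.15, 7.53 and 7.58 in Pax5+/-, and 8.33, 8.05, 8.44 and 7.95 in WT. All Pax5+/- arrays were below all others, while Cd72+/-;Pax5+/- and WT overlapped. Pttg1 fell by 0.69 in Pax5+/- against WT (SE 0.126, 1.62-fold lower, limma adjusted p = 0.0037) and was higher by 0.93 in Cd72+/-;Pax5+/- than in Pax5+/- (SE 0.126, 1.90-fold, adjusted p = 0.00034). The change of 0.23 in double heterozygotes relative to WT did not pass (95% interval -0.04 to 0.51). With the close pairs averaged, both calls were lost (adjusted p = 0.184 and 0.0708). Both were kept with the pairs as a random block (limma adjusted p = 0.0167 and 0.0018). Single arrays left out moved the change to between -0.77 and -0.58 against WT, and to between 0.81 and 1.01 against Pax5+/-, with both calls kept.

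Espl1 encodes separase, the protease that opens cohesin, and read 9.12, 9.03, 9.07 and 9.01 in Cd72+/-;Pax5+/-, 8.53, 8.76, 8.55 and 8.70 in Pax5+/-, and 8.57, 8.97, 8.67 and 9.06 in WT. All double-heterozygous arrays were above all Pax5+/- arrays, and WT spanned both. Espl1 rose by 0.42 in double heterozygotes relative to Pax5+/- (SE 0.0986, limma adjusted p = 0.0158), with an adjusted p of 0.0503 without double-heterozygous replicate 1, 0.0527 without Pax5+/- replicate 3 and 0.364 with the close pairs averaged. The call was kept with the pairs as a random block (limma adjusted p = 0.0311). Ube2c, a ubiquitin-conjugating enzyme that works with the anaphase-promoting complex, read 9.52, 9.64, 9.62 and 9.67 in Cd72+/-;Pax5+/-, 9.52, 9.39, 9.29 and 9.25 in Pax5+/-, and 9.38, 9.47, 9.39 and 9.36 in WT. The double-heterozygous arrays were above all WT arrays and met Pax5+/- at a single value, 9.52. It rose by 0.25 in double heterozygotes relative to Pax5+/- (SE 0.0611, limma adjusted p = 0.0206), a call lost without double-heterozygous replicate 2, 3 or 4 or Pax5+/- replicate 3 or 4 (adjusted p up to 0.0667) and with the pairs averaged (0.194). Against WT its change was 0.21 (adjusted p = 0.0543).

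Bub1b encodes BubR1, which holds the anaphase-promoting complex inactive until the chromosomes are attached. It read 10.71, 10.73, 10.77 and 10.81 in Cd72+/-;Pax5+/-, 10.54, 10.37, 10.54 and 10.33 in Pax5+/-, and 10.76, 10.58, 10.71 and 10.66 in WT. As for Pttg1, the Pax5+/- arrays were below all others. Bub1b was higher by 0.31 in Cd72+/-;Pax5+/- than in Pax5+/- (SE 0.0602, limma adjusted p = 0.0049), a call kept with every array left out in turn and lost with the pairs averaged (0.259). Bub1b kept that call with the pairs as a random block (limma adjusted p = 0.0177). It was lower by 0.23 on the log2 scale in Pax5+/- than in WT (change -0.23, adjusted p = 0.0334), and that call was lost without double-heterozygous replicate 2 or 3, Pax5+/- replicate 2 or 4, or WT replicate 1, 3 or 4 (adjusted p up to 0.106) and with the pairs averaged (0.528). The random block ended the call against WT too (limma adjusted p = 0.0978). The other checkpoint kinases and their partners did not pass in any comparison: Bub1 (-0.31 to -0.10), Bub3 (0.00 to 0.01), Mad2l1 (-0.10 to 0.21) and Ttk (-0.15 to 0.04). Nor did Cdc20, the activator of the anaphase-promoting complex (-0.09 to 0.14), or Sgol1, which protects cohesin at centromeres (-0.27 to -0.13).

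Of the 7 kinesins, motor proteins that move along microtubules, 1 passed in 1 comparison. It was lower in double heterozygotes relative to Pax5+/-, as were 5.35% of all tested clusters. Kif22, a kinesin that pushes chromosome arms toward the middle of the spindle, read 9.68, 9.71, 9.68 and 9.75 in Cd72+/-;Pax5+/-, 10.01, 10.04, 10.04 and 10.00 in Pax5+/-, and 9.98, 9.65, 9.90 and 9.65 in WT. The Pax5+/- arrays were above all others, and Cd72+/-;Pax5+/- lay inside the range of WT. Kif22 fell by 0.32 in double heterozygotes relative to Pax5+/- (SE 0.07, limma adjusted p = 0.0113), and was the single gene of the 47 that passed as lower in that comparison. The call held with each array left out (adjusted p 0.0039 to 0.0368) and was lost with the pairs averaged (0.332). It was kept with the pairs as a random block (limma adjusted p = 0.0302). Kif11, which pushes the spindle poles apart, averaged 11.19 ± 0.055 in Cd72+/-;Pax5+/-, 11.15 ± 0.105 in Pax5+/- and 11.45 ± 0.203 in WT (SD, n = 4 arrays), with changes of -0.26 and -0.31 against WT that did not pass (limma adjusted p = 0.105 and 0.0600) although the groups did not overlap. Kif20a, a kinesin of the spindle midzone (-0.13 to -0.01), Kif20b (-0.24 to 0.04), Kif23 (-0.13 to 0.05), the microtubule depolymerase Kif2c (-0.18 to 0.03) and the X-linked Kif4 (-0.19 to -0.06) did not pass in any comparison.

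Cytokinesis is directed by centralspindlin, made of Kif23 and Racgap1, which recruits Ect2, the activator of the RhoA contractile ring. Racgap1 read 10.42, 10.42, 10.42 and 10.41 in Cd72+/-;Pax5+/-, 10.14, 10.36, 10.08 and 10.20 in Pax5+/-, and 10.18, 10.18, 10.05 and 10.20 in WT. Ect2 read 10.82, 10.79, 10.85 and 10.69 in Cd72+/-;Pax5+/-, 10.92, 10.78, 10.91 and 10.86 in Pax5+/-, and 11.19, 10.95, 11.11 and 10.97 in WT. The double-heterozygous arrays were thus above all others for Racgap1, and the WT arrays were above all others for Ect2. Racgap1 rose by 0.27 in double heterozygotes relative to WT (SE 0.0593, limma adjusted p = 0.0151), a call lost with the pairs averaged (0.317) or as a random block. Against Pax5+/- it rose by 0.22 (adjusted p = 0.0321), a call lost without any 1 of the 4 double-heterozygous arrays or Pax5+/- replicate 1, 3 or 4 (adjusted p up to 0.0962) and with pairs averaged (0.373). Ect2 fell by 0.27 in double heterozygotes relative to WT (SE 0.0621, limma adjusted p = 0.0188), a call lost without double-heterozygous replicate 2 or 4 or WT replicate 1 or 3 (up to 0.0618) and with pairs averaged (0.363). Hmmr, a spindle-associated hyaluronan receptor, averaged 10.15 ± 0.0577 in Cd72+/-;Pax5+/- and 10.40 ± 0.0881 in WT (SD, n = 4 arrays). Hmmr fell by 0.25 in double heterozygotes relative to WT (limma adjusted p = 0.0336), a call lost without double-heterozygous replicate 1, 2 or 4 or WT replicate 1 or 3 (up to 0.106) and with pairs averaged (0.479). Tpx2, which activates Aurora A (-0.06 to 0.03), Prc1, which bundles the microtubules of the spindle midzone (-0.23 to 0.16), the microtubule stabilizer Nusap1 (-0.40 to 0.08) and the ring scaffold anillin, Anln (-0.12 to 0.06), did not pass.

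In the centromere and condensin class, 2 of 13 genes were lower in Pax5+/- than in WT (Ncapd2 and Top2a), 1 was higher in Cd72+/-;Pax5+/- than in WT (Ncapd2), and 3 were higher in Cd72+/-;Pax5+/- than in Pax5+/- (Ncapd2, Incenp and Birc5). The shares of all tested clusters in these directions were 3.2%, 4.12% and 4.44%. Ncapd2 encodes a regulatory subunit of condensin I, the ring complex that compacts mitotic chromosomes. It read 11.28, 11.26, 11.19 and 11.21 in Cd72+/-;Pax5+/-, 10.37, 10.68, 10.38 and 10.64 in Pax5+/-, and 10.94, 10.80, 10.88 and 10.88 in WT. No array of one group reached another: Cd72+/-;Pax5+/- was the highest and Pax5+/- the lowest. Ncapd2 was higher by 0.36 in Cd72+/-;Pax5+/- than in WT (SE 0.0715, 1.28-fold, limma adjusted p = 0.0071) and fell by 0.36 in Pax5+/- against WT (1.28-fold lower, adjusted p = 0.0070). Between the mutants it rose by 0.72 in Cd72+/-;Pax5+/- (95% interval 0.56 to 0.87, 1.64-fold, adjusted p = 2.3e-05), and this call passed under all 23 alternatives that gave a value. In each of these comparisons the exact two-sided permutation p was 0.0286, the smallest that 4 arrays against 4 can give. With the close pairs averaged, both calls against WT were lost (limma adjusted p = 0.322 for Cd72+/-;Pax5+/- and 0.344 for Pax5+/-). Both were kept with the pairs as a random block (limma adjusted p = 0.0189 and 0.0178). Without replicates 1 and 3 of Pax5+/- and WT, the change in Pax5+/- against WT was -0.18 and did not pass (adjusted p = 0.0715), and without replicates 2 and 4 it was -0.54 (adjusted p = 0.00042).

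The other condensin subunits did not pass in any comparison. The core ATPases Smc2 and Smc4, which condensins I and II share, had log2 changes of -0.35 and -0.23 in double heterozygotes relative to WT (limma adjusted p = 0.107 and 0.124) and of -0.26 and -0.21 in Pax5+/- against WT. Their arrays in Cd72+/-;Pax5+/- did not overlap those in WT. In Cd72+/-;Pax5+/- against Pax5+/- they differed by -0.09 and -0.02, and the condensin I subunits Ncapg and Ncaph by -0.04 and 0.09, beside 0.72 for Ncapd2. Whether Ncapd2 differed from its partners in its change was not tested.

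Top2a, the topoisomerase that untangles sister chromatids, read 11.90, 11.86, 11.98 and 11.96 in Cd72+/-;Pax5+/-, 11.85, 11.79, 11.97 and 11.76 in Pax5+/-, and 12.24, 12.04, 12.15 and 12.05 in WT. All WT arrays were above all arrays of both mutants. Top2a fell by 0.28 in Pax5+/- against WT (SE 0.0605, 1.21-fold lower, limma adjusted p = 0.0124), a call lost with the pairs averaged (0.369), with the trended and robust prior and with only the compared arrays fitted. The call was kept with the pairs as a random block (limma adjusted p = 0.0496). In Cd72+/-;Pax5+/- against WT the change was -0.20 (adjusted p = 0.0750), and it passed after quantile normalization (-0.28, adjusted p = 0.0117). A second Top2a cluster with a mean of 8.61 gave -0.55 in Pax5+/- against WT and did not pass (adjusted p = 0.148). At the centromere, the histone variant Cenpa (-0.25 to 0.33), the kinetochore motor Cenpe (-0.23 to 0.01), the kinetochore protein Cenpf (-0.28 to -0.13) and the microtubule-binding subunits Ndc80 (-0.06 to -0.03) and Nuf2 (-0.18 to -0.07) did not pass in any comparison.

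Foxm1, the transcription factor that works with MuvB on promoters of this program, read 10.21, 10.02, 9.98 and 10.02 in Cd72+/-;Pax5+/-, 9.60, 9.92, 9.75 and 9.86 in Pax5+/-, and 9.83, 9.96, 9.88 and 10.01 in WT. The double-heterozygous arrays were above all Pax5+/- arrays and overlapped WT. Foxm1 rose by 0.28 in double heterozygotes relative to Pax5+/- (SE 0.0753, limma adjusted p = 0.0366), a call lost without any 1 of the 4 double-heterozygous arrays or Pax5+/- replicate 1 or 3 (adjusted p up to 0.109), after quantile normalization and with pairs averaged (0.396). Mki67, the marker of cycling cells that coats mitotic chromosomes, read 12.69, 12.73, 12.70 and 12.66 in Cd72+/-;Pax5+/-, 12.51, 12.73, 12.70 and 12.76 in Pax5+/-, and 12.82, 12.77, 12.88 and 12.81 in WT. The WT arrays were above all others, but by 0.13 and 0.15 on average against Cd72+/-;Pax5+/- and Pax5+/-, and neither change passed (-0.13, limma adjusted p = 0.232, and -0.15, adjusted p = 0.167). Between the mutants Mki67 differed by 0.02 (95% interval -0.10 to 0.14).

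**Figure D5:**
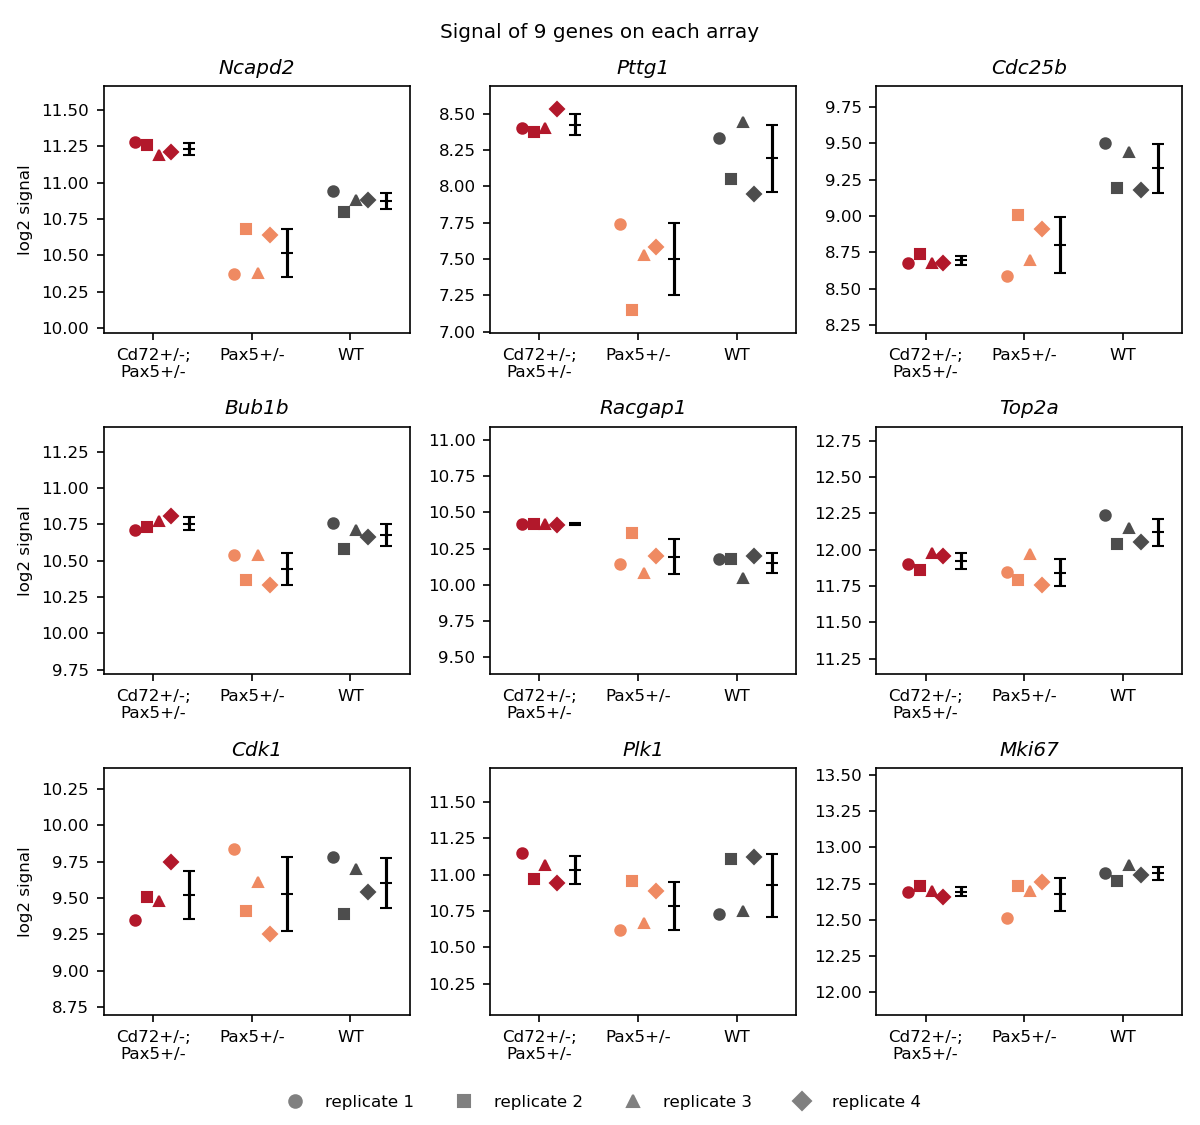
Log2 signal (y axis) of 9 genes on each array of Cd72+/-;Pax5+/-, Pax5+/- and WT (x axis); symbols mark replicates 1 to 4 and bars the mean ± SD of 4 arrays. Each panel spans the same range of signal. The groups are apart for Ncapd2 and overlap for Cdk1. For Cdc25b and Plk1, replicates 1 and 3 of Pax5+/- and WT stand apart from replicates 2 and 4. For Cdc25b replicates 1 and 3 are the lower pair in Pax5+/- and the higher pair in WT, and for Plk1 they are the lower pair in both.

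Genes that act beside these were counted in the same fit. Of 51 other G2 and M genes, 1 was higher and 4 were lower in Pax5+/- against WT, 2 higher and 4 lower in double heterozygotes relative to WT, and 9 higher and 3 lower in double heterozygotes relative to Pax5+/-. These are 9.8%, 11.8% and 23.5% of the list, against 7.47%, 7.78% and 9.79% of all tested clusters. With the dimmest clusters left out, the background was 10.7%, 11.3% and 14.3%. Psrc1, a microtubule-binding protein of the spindle, averaged 8.45 ± 0.0685 in Cd72+/-;Pax5+/-, 7.62 ± 0.156 in Pax5+/- and 8.88 ± 0.0997 in WT (SD, n = 4 arrays). It fell by 1.26 in Pax5+/- against WT (limma adjusted p = 3.85e-07, 2.39-fold lower) and by 0.43 in double heterozygotes relative to WT (adjusted p = 0.0034), and rose by 0.83 in double heterozygotes relative to Pax5+/- (adjusted p = 1.39e-05). With the close pairs averaged it passed in Pax5+/- against WT (0.0063) and between the mutants (0.0184) and not in double heterozygotes relative to WT (0.114). With the pairs as a random block it passed in every comparison (limma adjusted p up to 0.0328). Cdkn3, a phosphatase of cyclin-dependent kinases, was higher by 0.64 in Pax5+/- than in WT (adjusted p = 0.0188). In double heterozygotes relative to Pax5+/-, Ccnf (cyclin F) rose by 0.30 (adjusted p = 0.00026) and Bora, a cofactor for the activation of Plk1, by 0.22 (adjusted p = 0.0210), while Ckap2l, a spindle-pole protein, fell by 0.59 (adjusted p = 0.0030). None of these 4 passed with the pairs averaged. With the pairs as a random block Cdkn3, Ccnf and Ckap2l passed (limma adjusted p = 0.0406, 0.0051 and 0.0058) and Bora did not (0.104).

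Of the 15 subunits of the anaphase-promoting complex, 1 was lower in Pax5+/- against WT (Cdc23, -0.25), and 1 was higher (Anapc11, 0.36 and 0.38) and 1 lower (Cdc27, -0.22 and -0.23) in the double heterozygotes relative to WT and to Pax5+/-. These are 6.67%, 13.3% and 13.3% of the subunits, against 7.47%, 7.78% and 9.79% of all tested clusters. A list of 17 genes covered the DREAM, MuvB, B-Myb and NF-Y complexes. It also held the repressors E2f7 and E2f8, which are not subunits of these complexes. Of the 17 genes, 1 was higher and 2 were lower in Pax5+/- against WT, and none passed in double heterozygotes relative to WT. In double heterozygotes relative to Pax5+/-, 4 were higher and 1 lower (17.6%, 0% and 29.4% of the list in these comparisons). E2f7 and E2f8 were the 2 lower genes in Pax5+/- against WT and 2 of the 4 higher genes between the mutants. Tfdp2, a dimerization partner of E2F factors, rose by 1.08 in Pax5+/- against WT (limma adjusted p = 0.00045) and fell by 0.77 in double heterozygotes relative to Pax5+/- (adjusted p = 0.0047). The repressors E2f7 and E2f8 fell by 0.27 and 0.31 in Pax5+/- against WT, and rose by 0.30 and 0.35 in double heterozygotes relative to Pax5+/-, each with an adjusted p of at most 0.0109. None of these 3 genes passed with the pairs averaged. With the pairs as a random block each of these calls was kept except that of E2f8 in Pax5+/- against WT (limma adjusted p = 0.0596). Of 27 S phase genes, 5 were lower in Pax5+/- against WT, 3 were higher and 1 lower in double heterozygotes relative to WT, and 5 were higher in double heterozygotes relative to Pax5+/- (18.5%, 14.8% and 18.5% of the list). Rrm2, the small subunit of ribonucleotide reductase, fell by 0.91 in Pax5+/- against WT (limma adjusted p = 1.49e-05) and rose by 0.81 in double heterozygotes relative to Pax5+/- (adjusted p = 3.18e-05), and with the pairs averaged both passed (0.0456 and 0.0493). E2f1, an activator of S phase genes, rose by 0.43 in double heterozygotes relative to WT (adjusted p = 0.00071) and by 0.37 against Pax5+/- (adjusted p = 0.0016), and neither passed with the pairs averaged. Both passed with the pairs as a random block (limma adjusted p = 0.0042 and 0.0085).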

How the data were processed

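Log2 signal values of 28944 transcript clusters on 12 arrays, 4 per group, were used as the authors deposited them. Per the labels, the arrays were analysed with the Transcriptome Analysis Console (version 4.0.3). The background correction, normalization and genome build behind them were not given in the sources used here. Array medians were 6.91 to 7.005. The 23410 clusters with a gene symbol were fitted with limma 3.58.1 in R 4.3.3 with a mean per group (9 residual and 3.28 prior degrees of freedom), and calls were made at an adjusted p (Benjamini-Hochberg) under 0.05. A gene symbol is that of the platform annotation, with 21789 clusters naming 1 gene, 1621 several and 5534 none, and Top2a alone among the genes described had a second cluster. SEs are moderated, and SDs are over 4 arrays. The smallest exact two-sided permutation p for 4 arrays against 4 is 0.0286. The titles share no number between groups, so no pairing of groups was possible.

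Every gene of the list is named, with array values for 12 that passed with the smallest adjusted p and for Cdk1, Plk1, Mki67, Top2a and Foxm1; from the other lists up to 4 called genes per comparison could be named. The members, lists and naming rule were chosen with earlier results of these data known. Alternatives were quantile normalization, a common median, all clusters, the dimmest clusters left out, a trended and robust prior, fewer arrays in the fit, other thresholds, the mean of a gene's clusters, each array left out, and the closest pairs averaged or as a random block; leaving out replicates 1 and 3, or 2 and 4, of Pax5+/- and WT was added after the arrays were seen. The fit was tested on simulated data with independent arrays, so that test does not cover arrays that come in close pairs. Promoter windows came from RefSeq (GRCm38.p6), and matplotlib 3.10.9 with pandas 2.3.3 under Python 3.11.15 drew the figures.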

Additional observations from a re-analysis of the deposited data

Results flagged for a closer look

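In 4 of 141 groups of 4 arrays, 1 array stood far from the other 3 relative to the range of the group, where chance gives about 5% of groups. Tpx2 was at 10.62 on Cd72+/-;Pax5+/- replicate 1, against 10.73 to 10.75 on the other Cd72+/-;Pax5+/- arrays. Racgap1 was at 10.05 on WT replicate 3, against 10.18 to 10.20 on the other WT arrays. Cdc25b was at 8.74 on Cd72+/-;Pax5+/- replicate 2, against 8.68 on the other Cd72+/-;Pax5+/- arrays. Racgap1 was at 10.41 on Cd72+/-;Pax5+/- replicate 4, against 10.42 on the others, a gap as small as the rounding of the values allows.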

How the results depend on the processing

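No paired analysis was possible because the sample numbers in the titles, 1 to 12, are each used once. With 5, 5 and 11 genes called in Pax5+/- relative to WT, in Cd72+/-;Pax5+/- (double heterozygotes) relative to WT, and in double heterozygotes relative to Pax5+/-, the counts in this order were 3, 3 and 7 with the trended and robust prior, 0, 0 and 1 with the closest pairs averaged, and 0 in each at the study's threshold. In the same limma fit 16 genes in each comparison had an unadjusted p under 0.05. With the pairs as a random block (correlation 0.427) 4, 2 and 5 genes passed. In Pax5+/- relative to WT 3 genes passed with only the compared arrays fitted and 8 at an adjusted p under 0.1. Without replicates 1 and 3 of Pax5+/- and WT 15, 8 and 14 passed, and without replicates 2 and 4 of both groups 10, 32 and 21. Single arrays left out gave 4 to 7, 3 to 7 and 4 to 11 genes, and median changes of -0.16 to -0.09, -0.13 to -0.02 and -0.04 to 0.07. The cause of these shifts was not tested.

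Changes close to 0 turned direction in some settings. Between double heterozygotes and Pax5+/-, the change of Cdk1 was 0.01875 with a common median and 0.1925 without replicates 1 and 3 of Pax5+/- and WT, and lay between -0.0975 and 0.0992 with single arrays left out. For Mki67 it was -0.0279 after quantile normalization and -0.05 without replicates 1 and 3 of Pax5+/- and WT, and between -0.035 and 0.0483 with single arrays left out. In Pax5+/- relative to WT, Cdk1 lay between -0.179 and 0.0175 with single arrays left out. In double heterozygotes relative to WT, Cdk1 was at 0.0575 and Plk1 at -0.0825 without replicates 1 and 3 of Pax5+/- and WT.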
